A study of Homo sapiens with 4 samples.

Results

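The keratin genes were taken as every gene whose symbol in the platform annotation begins with KRT followed directly by a digit, with keratin-associated (KRTAP) genes and pseudogenes left out. This gave 48 members among 18132 genes with a probe set matching a single gene, of which 47 encode keratins and 1 is the antisense RNA gene KRT10-AS1, and they were read by 69 probe sets. Total RNA came from SCC-15 cells, a long-established line grown from a human squamous carcinoma of the tongue, and was measured on 4 1-colour Affymetrix arrays. The mimic group (2 arrays) had received a microRNA mimic at 30 nM, a synthetic copy of a mature microRNA, and the control group (2 arrays) the negative control oligonucleotide miR-NC; transfection followed 24 h after the cells were seeded, and RNA was taken 36 h later. The series title and design text name the mimic miR-762, whereas the labels of both mimic samples name miR-585-5p, so the group is called mimic here. All arrays are of 1 cell line, and the labels do not say whether replicate arrays hold separate cultures, so the p-values cover only the variation between these arrays, which could be technical.

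Keratins are the intermediate filament proteins of epithelial cells. Each filament is built from pairs of an acidic type I and a basic type II keratin, and epithelia differ in the pairs they make: KRT5 with KRT14 in the basal layer of stratified epithelia, KRT4 with KRT13 above it in non-cornified mucosa such as the lining of the mouth, KRT1 with KRT10 in cornifying epidermis, and KRT8 with KRT18 in simple epithelia. Type I genes other than KRT18 lie in a cluster on chromosome 17, and type II genes together with KRT18 lie in a cluster on chromosome 12. Squamous carcinoma cells keep many of these genes active, and keratin patterns are widely used to describe how differentiated such cells are.

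The mature sequences of both microRNAs named for the mimic are shown because the sources disagree on which was given, and because a microRNA chooses its targets mainly by its seed (bases 2 to 8, in capitals). Both come from RefSeq on GRCh38.p14, hsa-miR-762 at chr16:30893951-30893972 on the plus strand and hsa-miR-585-5p at chr5:169263649-169263670 on the minus strand, 5′ to 3′.
hsa-miR-762: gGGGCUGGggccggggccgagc
hsa-miR-585-5p: cUAGCACAcagauacgcccaga
No value below depends on which name is right.

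The keratin genes did not move as a family. Of 48 members, 30 had a probe set above the dimmest 30% of all probe sets (a log2 intensity of 2.83) and were tested; 8 rose, 3 fell and 19 did not pass (limma over 14340 genes, Benjamini-Hochberg adjusted p under 0.05). KRT15, KRT13, KRT14, KRT19, KRT5, KRT1, KRT10 and KRT9 rose, and KRT80, KRT7 and KRT83 fell. The share that rose was 26.7% of the tested members against 17.7% of all tested genes, and the share that fell was 10% against 12.3%. The median difference, mimic minus control on the log2 scale, was -0.04 over the tested members and -0.02 over all tested genes. By 2-fold or more, 3 members rose (KRT15, KRT13 and KRT14) and 0 fell. Of all tested genes 2.06% rose that far, and the share that fell that far was not counted, so the 0 has no background here. The values of the mimic arrays lay wholly above those of the controls for 10 of the 30 members and wholly below for 12, against 34.2% and 36.3% of all tested genes.

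Those counts rest on both mimic arrays and on the scaling. With either of the mimic arrays left out, no gene of the whole table passed in limma, keratins included (7 members higher and 3 lower at an unadjusted p under 0.05 in each case). Without control replicate 1, and again without control replicate 2, the same 6 genes passed: KRT13, KRT14, KRT15 and KRT19 were higher, and KRT7 and KRT80 lower. When each array was centred on its median, 6 members were higher (KRT9 and KRT1 lost their calls) and 8 lower, and after a further quantile normalization 7 were higher and 4 lower. In the bulk RNA of a culture, fewer cells making a keratin and less of its RNA per cell cannot be told apart.

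**Figure D1:**
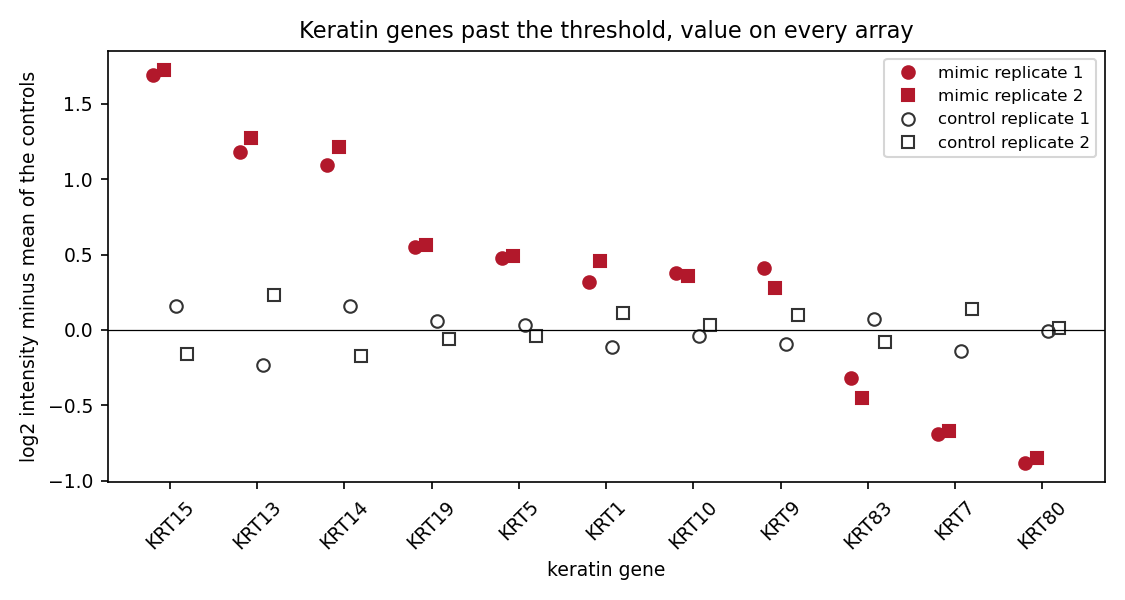
Each point is a keratin gene's log2 intensity on a single array minus the mean of the control arrays (vertical axis), for the 11 members past the threshold (horizontal axis); filled symbols are mimic arrays and open symbols control arrays. The mimic arrays lie close together for every gene, from an SD of 0.01 for KRT5 to 0.10 for KRT1, while the control arrays of KRT13, KRT14, KRT15 and KRT7 are spread by SDs of 0.20 to 0.32.

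All 3 members of the basal group, KRT5, KRT14 and KRT15, rose, against 17.7% of all tested genes. KRT15, a type I keratin of basal cells that is also used to mark stem cells of the hair follicle, read 8.83 and 8.86 (log2 intensity) in mimic replicates 1 and 2 and 7.30 and 6.98 in control replicates 1 and 2. Its mimic values almost coincided and lay far above both controls, which differed from each other. The difference was 1.70 ± 0.12 (SE), or 3.25-fold, with an adjusted p of 0.00172 in limma, and it ranged from 1.54 to 1.86 over the alternatives run.

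KRT14, the main type I partner of KRT5 in basal cells, read 10.74 and 10.86 in the mimic arrays and 9.81 and 9.48 in the controls. Again the groups did not overlap and the control arrays were further apart than the mimic arrays. It rose by 1.15 ± 0.12 (SE), 2.23-fold (limma adjusted p = 0.00479). Its only probe set is of the _x_at kind, whose probes can also match other transcripts, and KRT14 has the close relatives KRT16 and KRT17, so the probe set may not separate them.

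KRT5, the type II keratin of basal cells, rose by less. Its brighter probe set read 12.31 and 12.32 in the mimic arrays and 11.86 and 11.79 in the controls, a difference of 0.48 ± 0.059 (SE), 1.40-fold (limma adjusted p = 0.00653). The other KRT5 probe set read 8.29 and 8.28 against 7.37 and 7.37, a difference of 0.92 ± 0.062 (limma adjusted p = 0.00208 among 31711 probe sets). Both probe sets rose, and they differed in size by more than their errors. With either control array left out KRT5 no longer passed, at 0.52 and 0.45 (limma adjusted p = 0.0522 and 0.0533).

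Among the keratins of the mucosa above the basal layer, KRT13 rose and its partner did not. KRT13, the type I keratin of non-cornified mucosa including the tongue, read 5.08 and 5.17 in the mimic arrays and 3.67 and 4.13 in the controls. The control arrays were far apart, and both lay below both mimic arrays. The difference was 1.22 ± 0.16 (SE), 2.34-fold (limma adjusted p = 0.00716). A further probe set gave 1.08 and passed as well, and the last, which was too dim to be tested, read 2.72 and 3.21 against 1.97 and 2.17.

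KRT4, the type II partner of KRT13, read 5.12 and 5.18 in the mimic arrays and 5.15 and 5.23 in the controls. Its groups overlapped and the difference of -0.04 ± 0.064 (SE) did not pass (limma adjusted p = 0.688). KRT76, a type II keratin of gingiva and palate, gave -0.04 ± 0.057 and did not pass either. KRT78, a type II keratin of stratified epithelia, was too dim to be tested.

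Of 4 tested keratins of cornifying epidermis, 3 rose and 0 fell (limma; 1 lower at an unadjusted p under 0.05, KRT2), against 17.7% and 12.3% of all tested genes. KRT10, the type I keratin of suprabasal epidermis, read 9.36 and 9.34 in the mimic arrays and 8.94 and 9.01 in the controls, and rose by 0.37 ± 0.06 (SE; limma adjusted p = 0.0133). KRT1, its type II partner, rose by 0.39 ± 0.1 (limma adjusted p = 0.0434), and KRT9, the keratin of palms and soles, by 0.34 ± 0.09 (limma adjusted p = 0.0446). The calls of KRT1 and KRT9 were close to the threshold: KRT1 was lost in 6 of 12 alternatives and KRT9 in 8 of 12. KRT2, a type II keratin of the upper epidermis, went the other way, with a difference of -0.29 ± 0.11 and both mimic values below both controls, and did not pass, and KRT77 was too dim. KRT10-AS1, the antisense RNA gene beside KRT10, had 0.13 ± 0.064 and did not pass.

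Simple epithelial keratins went different ways. KRT19, the smallest type I keratin, which is made in simple epithelia and in some basal cells, read 12.29 and 12.30 in the mimic arrays and 11.80 and 11.68 in the controls. All mimic values lay above all control values, and the rise was 0.56 ± 0.067 (SE), 1.47-fold (limma adjusted p = 0.00632). KRT7, a type II keratin of ducts and glands, read 6.25 and 6.27 against 6.80 and 7.08. Here the mimic arrays lay below the controls, and KRT7 fell by 0.67 ± 0.1 on the log2 scale, 1.60-fold (limma adjusted p = 0.0121).

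KRT8 and KRT18, the obligate pair of simple epithelia, showed no call. KRT18 read 10.71 and 10.69 in the mimic arrays and 10.74 and 10.87 in the controls (difference -0.11 ± 0.07, limma adjusted p = 0.282). KRT8 read 8.67 and 8.64 against 8.74 and 8.78 (difference -0.11 ± 0.058, limma adjusted p = 0.212). In these brightest probe sets both mimic values lay below both control values, but the other probe sets did not all follow. The other KRT18 probe set read 9.78 and 9.80 against 9.74 and 9.88, so its groups overlapped. Of the 8 KRT8 probe sets, 2 had mimic values wholly below the controls, 2 wholly above and 4 overlapped; their differences ran from -0.19 to 0.13 with 0 past the threshold, and the mean of them gave 0.01. KRT20, a keratin of gut and bladder lining, was too dim to be tested.

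KRT80, a type II keratin found near desmosomes in many epithelia, fell furthest. It read 5.14 and 5.17 in the mimic arrays and 6.01 and 6.03 in the controls, with both pairs of replicates nearly identical. The fall was -0.86 ± 0.057 (SE), 1.82-fold (limma adjusted p = 0.00158), and the difference lay between -0.95 and -0.85 over the alternatives run.

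Keratins of the hair follicle were dim, with mean log2 intensities of up to 5.46 (KRT33A). KRT13 (4.51), KRT1 (4.33) and KRT9 (5.07), which rose, were no brighter than KRT33A. Of 13 hair shaft members 9 were tested, and 1 passed: KRT83, a type II keratin of the hair cortex, which fell by 0.38 ± 0.085 (SE; limma adjusted p = 0.03), from a control mean of 3.76 to 3.38 in the mimic arrays. Leaving out control replicate 1 (limma adjusted p = 0.122) or control replicate 2 (0.0796) ended that call, and KRT83 has the close relatives KRT81 and KRT86. The other 8 lay between -0.34 (KRT85) and 0.07 (KRT33B). Of 10 members of the hair root sheath and companion layer 3 were tested and 0 passed (limma; 2 at an unadjusted p under 0.05, KRT73 and KRT71). Their differences were -0.28 for KRT73, -0.25 for KRT71 and 0.03 for KRT74. Over all tested genes 17.7% rose and 12.3% fell. KRT32, a hair cuticle keratin, and KRT71 missed the threshold narrowly (adjusted p = 0.0513 and 0.0564), and both counted as lower when arrays were centred on their medians.

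KRT6A, KRT6B, KRT16 and KRT17 had no probe set matching a single gene and were not read. KRT6C, the only measured keratin of the wound and hyperproliferation group, had a difference of 0.26 ± 0.12 in its brighter probe set (limma adjusted p = 0.166), whose kind, _x_at, can match other transcripts. Its mimic arrays read 7.08 and 7.06 and its controls 6.98 and 6.64, so that the groups did not overlap and control replicate 2 was lowest. Without control replicate 2 the difference was 0.09 and without control replicate 1 it was 0.43, and neither passed (limma adjusted p = 0.293 and 0.0564). The other probe set read 6.70 and 6.91 against 6.47 and 6.19, a difference of 0.47. KRT6C counted as higher when _s_at and _x_at probe sets were left out and this probe set stood for it (limma adjusted p = 0.0468, against 0.0564 to 0.413 over the other alternatives). The cornea keratin KRT3 had -0.05 ± 0.078, and KRT12 was too dim.

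The 18 members that were not tested had mean log2 intensities of 1.26 (KRT28) to 2.75 (KRT75), and the dimmest tested member, KRT35, was at 3.08. Their differences lay between -0.33 and 0.15. Without the filter, 1 of them, KRT79, counted as lower (named after its value was seen).

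**Figure D2:**
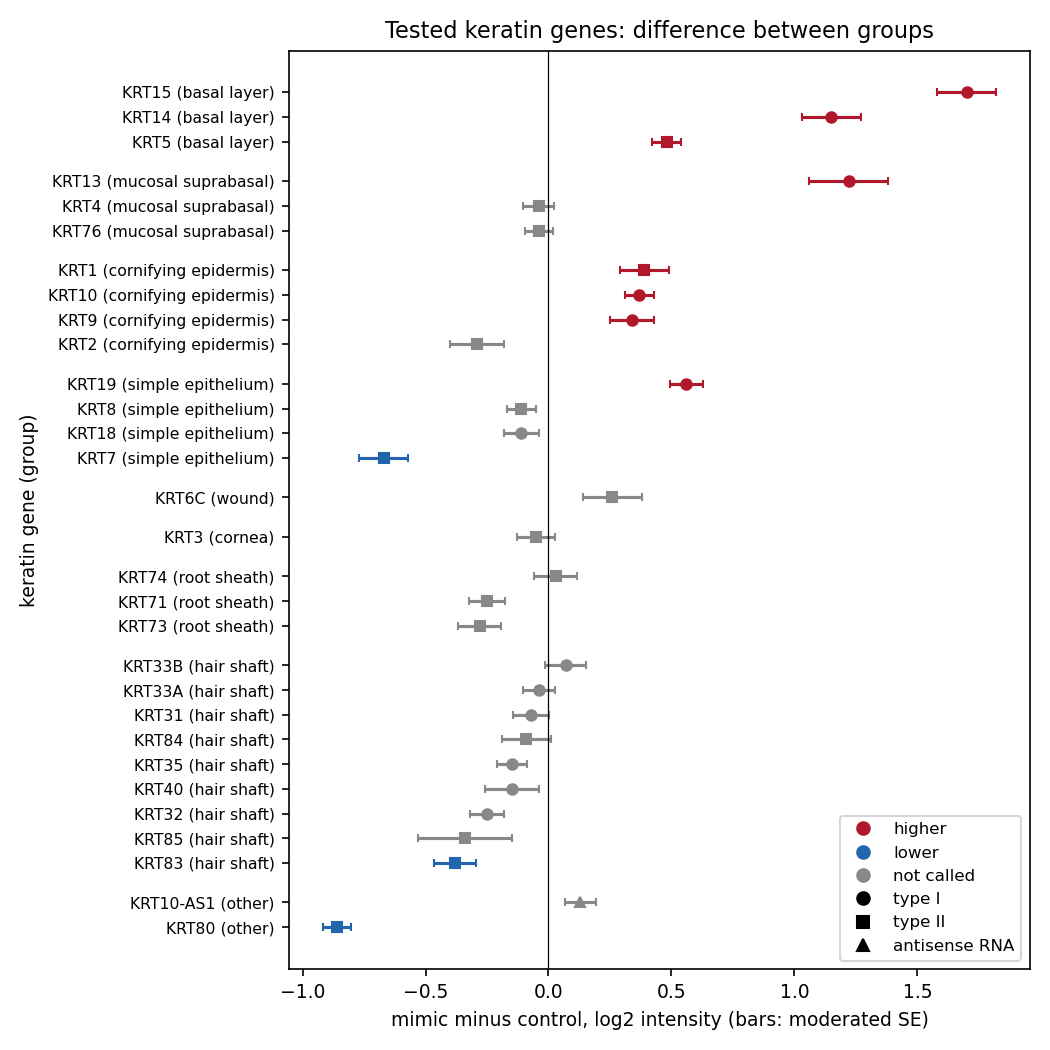
Each point is the mimic minus control difference in log2 intensity (horizontal axis) of a tested keratin gene, listed by group (vertical axis); bars are limma's moderated SE, circles type I, squares type II, the triangle the antisense RNA, and colour the call. The basal group lies to the right at 0.48 to 1.70, and the hair shaft group at -0.38 to 0.07.

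By type, 6 of 13 tested type I genes rose and 0 fell, with 7 not past the threshold (limma; median 0.07), and of 16 tested type II genes 2 rose and 3 fell (median -0.10). Over all tested genes 17.7% rose and 12.3% fell, with a median of -0.02. The difference between the types was not tested.

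Set side by side, partners of a pair differed in how they moved in some pairs and not in others. The log2 ratio of KRT14 to KRT5 on the same array was -1.56 and -1.46 in the mimic arrays and -2.05 and -2.31 in the controls, so that KRT14 gained 0.67 on KRT5. KRT15 gained 1.22 on KRT5, KRT13 gained 1.26 on KRT4, and KRT19 gained 1.23 on KRT7, each without overlap between the groups. KRT10 gained 0.41 on KRT76, also without overlap, while KRT76 itself differed by -0.04. Among single genes 34.2% lay wholly above the controls and 36.3% wholly below, and no such share was computed for ratios. The gains on KRT5 depended on its probe set: against the dimmer one, which rose more, KRT14 gained 0.24 and KRT15 0.78, still without overlap, a choice added after the data were seen. Over all tested probe sets of both genes the gain of KRT13 on KRT4 was 1.12 to 1.33. By contrast the ratio of KRT18 to KRT8 was 2.04 and 2.06 against 2.00 and 2.09, and that of KRT10 to KRT1 was 4.91 and 4.75 against 4.92 and 4.77, in both of which the groups overlapped. Over the 16 combinations of probe sets the change in the ratio of KRT18 to KRT8 lay between -0.24 and 0.17. In 7 of these combinations the groups overlapped, in 6 the mimic ratios lay wholly below the controls and in 3 wholly above. For KRT18 and KRT8 the overlap therefore depended on the probe sets chosen. With 2 arrays in each group the smallest two-sided p of an exact permutation test is 0.333, the value for KRT14 with KRT5; a log ratio shows unequal change of the probe sets and not the amounts of protein.

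Neighbouring genes shared calls in both keratin clusters. In RefSeq order on chromosome 17, the neighbouring genes KRT13, KRT15, KRT19, KRT9 and KRT14 all rose, a run of 5 tested genes, with differences of 1.22, 1.70, 0.56, 0.34 and 1.15. KRT16 and KRT17, which follow KRT14, were not read. The tested hair keratin genes on the other side of the run, KRT33A, KRT33B, KRT31, KRT32 and KRT35, had differences of -0.25 to 0.07 with 0 past the threshold (limma; KRT32 had an unadjusted p of 0.0157). At the far side of the same cluster KRT10 rose, and KRT40, the other keratin tested there, did not pass (-0.15). KRT10-AS1, beside KRT10, did not pass either (0.13). Between KRT40 and KRT33A lie KRTAP genes, which are not members. Of those tested, KRTAP2-3 was called lower (-0.32) and the others did not pass. On chromosome 12, the 3 genes that fell, KRT80, KRT7 and KRT83, were neighbours among the tested genes at 1 end of the cluster, with KRT86 and KRT81 between them not tested. KRT5 and KRT1, further along, were the members that rose there. The order was looked at after the calls were known, and no test was made of it.

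**Figure D3:**
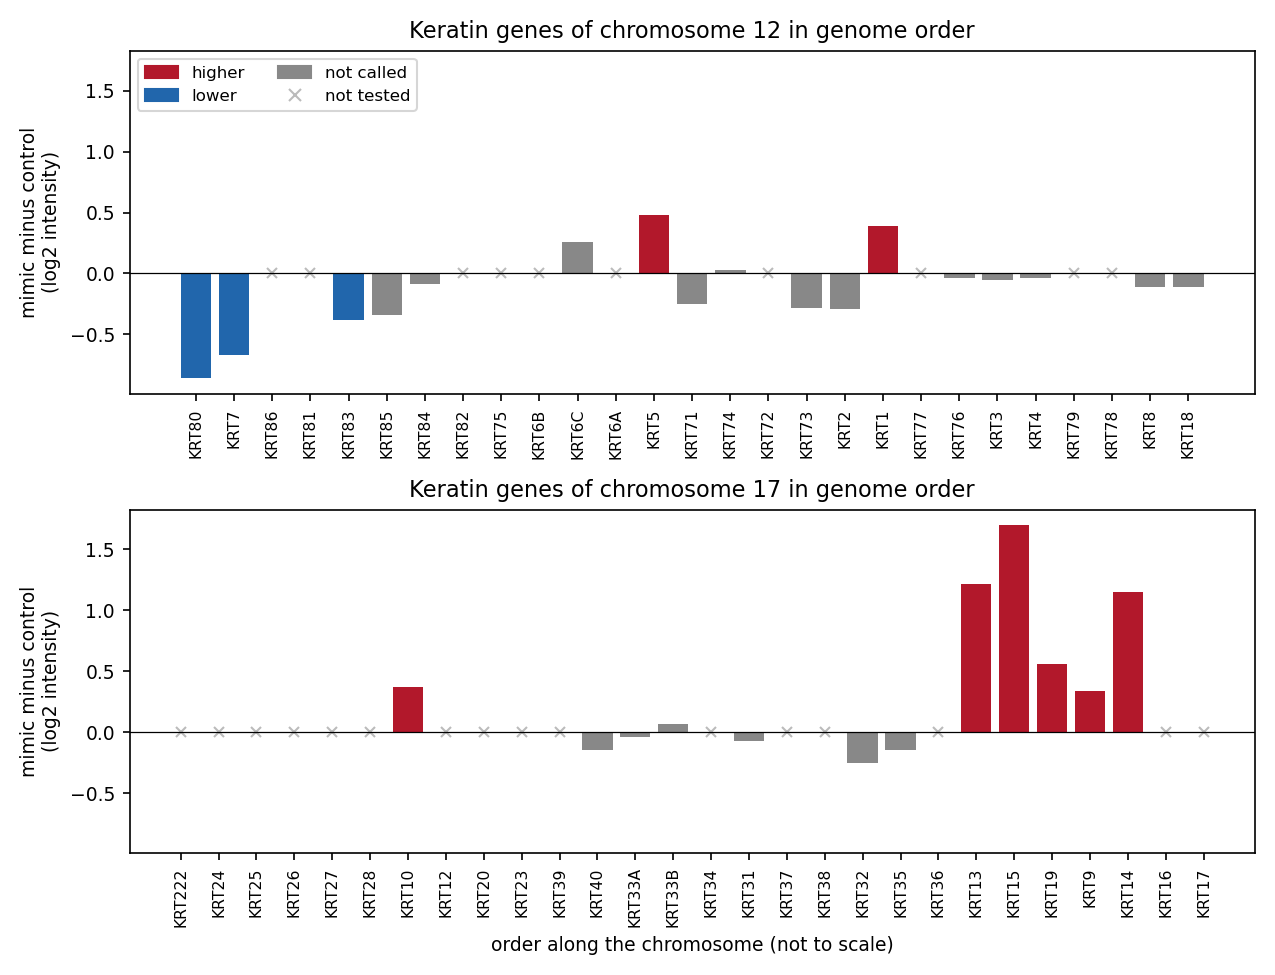
Bars give the mimic minus control difference in log2 intensity (vertical axis) for keratin genes in their order along chromosomes 12 and 17 (horizontal axis, ranks and not distances); crosses are genes not tested. The 5 bars of KRT13 to KRT14 stand together at the right of the lower panel, and the 3 falling genes at the left of the upper panel.

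Promoter sequences were available from RefSeq (GRCh38.p14) for 20 of the 30 tested members, among them 3 that rose, KRT5, KRT10 and KRT9. They are shown, 250 bases before the start of transcription, 5′ to 3′ on the strand of the gene, because genes of separate clusters with a like rise can be compared in them. Capitals mark 4 motifs searched on both strands: the TATA box TATAAA, the AP-1 site TGANTCA, the GC box GGGCGG and the AP-2 site GCCNNNGGC. KRT5 lies at chr12:52520395-52520644, KRT10 at chr17:40822615-40822864 and KRT9 at chr17:41572060-41572309, all on the minus strand.
KRT5: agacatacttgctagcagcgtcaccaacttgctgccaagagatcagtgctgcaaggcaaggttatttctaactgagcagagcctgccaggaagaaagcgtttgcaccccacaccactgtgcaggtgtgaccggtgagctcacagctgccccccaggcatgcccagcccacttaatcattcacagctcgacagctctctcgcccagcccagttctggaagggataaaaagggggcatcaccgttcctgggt
KRT10: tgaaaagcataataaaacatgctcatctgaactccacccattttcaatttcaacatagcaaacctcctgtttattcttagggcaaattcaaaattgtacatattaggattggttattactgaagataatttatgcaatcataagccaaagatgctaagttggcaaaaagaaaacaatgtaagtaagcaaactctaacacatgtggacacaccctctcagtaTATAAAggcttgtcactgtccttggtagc
KRT9: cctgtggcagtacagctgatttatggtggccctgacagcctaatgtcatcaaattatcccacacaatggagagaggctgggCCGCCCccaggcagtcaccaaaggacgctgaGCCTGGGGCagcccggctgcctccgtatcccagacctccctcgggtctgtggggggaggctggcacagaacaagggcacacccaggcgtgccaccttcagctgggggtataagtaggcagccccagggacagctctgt
As spelled, none of the 4 motifs was found in KRT5 in this window. KRT10 held a TATAAA 29 bases before the start, and KRT9 a GC box at 169 and an AP-2 motif at 138 bases. No exact motif was common to the 3 genes. Near spellings of TATAAA were not counted, such as gataaa in KRT5 and tataag in KRT9, both close to the start. The search therefore cannot show that these 2 genes lack a TATA element. Over the 20 promoters, TATAAA was found in 10, against 11.1% of 27305 promoters of all genes, the AP-2 motif in 4 (19.7% of all), the GC box in 2 (42.3%) and TGANTCA in 0 (6.6%). Counting only TATAAA on the sense strand that began 40 to 21 bases before the start, it was found in 8 keratin promoters, against 2.54% of all, and 7 of those 8 belonged to genes that did not pass. GC box and AP-2 motifs may overlap each other. A match is only a match of letters.

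Where a keratin was read by several tested probe sets, they moved alike in some genes and not in others. All tested probe sets of KRT5, KRT13, KRT9 and KRT6C had mimic values wholly above the controls, though 0 of those of KRT6C passed the threshold. Over all tested genes 34.2% lay wholly above and 36.3% wholly below, and these shares were not computed for probe sets. In KRT4, KRT10-AS1, KRT18 and KRT33A the groups overlapped in 1 of 2 probe sets. Of the 8 probe sets of KRT8, 2 lay wholly above, 2 wholly below and 4 overlapped. In a fit over 31711 probe sets, 9 of 45 keratin probe sets rose and 3 fell, against 14.5% and 7.95% of all. KRT5 and KRT13 each had 2 of 2 probe sets past the threshold. For KRT9 the brighter probe set missed it in this fit (0.34, adjusted p = 0.0571) and the dimmer passed (0.55, adjusted p = 0.0105), both in limma. KRT15, KRT14, KRT19, KRT10, KRT1, KRT7, KRT80 and KRT83 rest on 1 probe set each, and that of KRT1 missed the threshold in this fit as well (0.39, limma adjusted p = 0.0543).

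**Figure D4:**
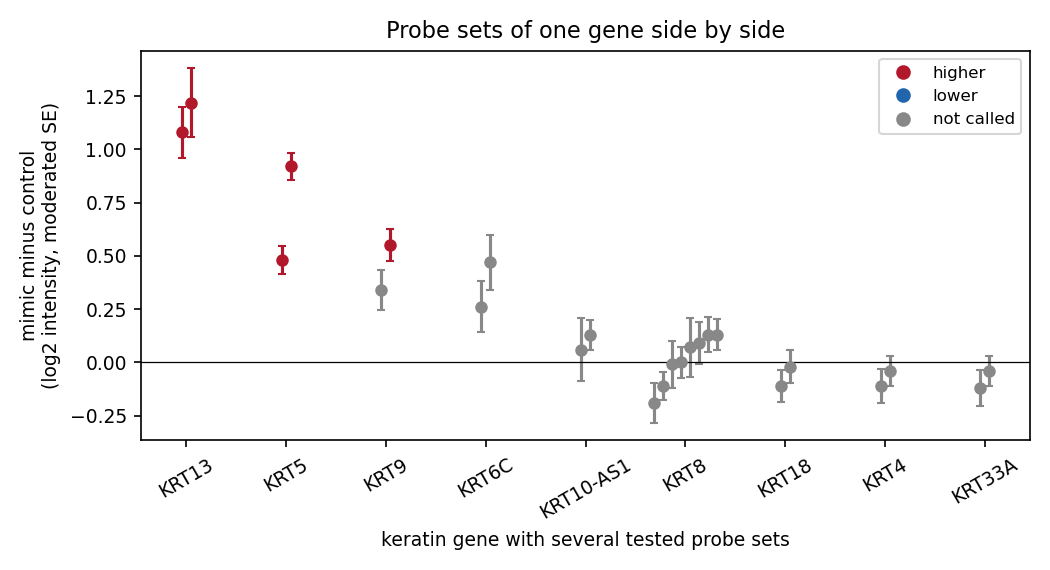
Each point is the mimic minus control difference in log2 intensity (vertical axis, bars moderated SE) of a tested probe set, for the 9 keratin genes read by several (horizontal axis). KRT13, KRT5, KRT9 and KRT6C lie above 0 in each of their probe sets, and the 8 probe sets of KRT8 lie on both sides of 0.

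Proteins that anchor keratin filaments were followed through a list of desmosome, hemidesmosome and filament-binding genes. In limma 6 of the 17 tested genes rose and 1 fell, and the other 10 missed the threshold (median 0.18); over all tested genes 17.7% rose and 12.3% fell, and these shares are the background for the 3 lists that follow as well. EPPK1, the gene of epiplakin, which binds keratin bundles, read 6.02 and 5.94 in the mimic arrays against 4.54 and 4.45 in the controls, and rose by 1.49 ± 0.068 (SE), 2.80-fold (limma adjusted p = 0.00103), with 1.37 in its other probe set. DST, which links keratins to hemidesmosomes, rose by 0.78, the integrin gene ITGB4 by 0.62, with the opposite sign in 4 of 8 probe sets, and the desmosomal plakophilin gene PKP1 by 0.61. PKP2, another plakophilin gene, was the member that fell (-0.38; named after its value was seen).

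Of 6 tested genes for keratin bundling and the cornified envelope, 2 rose, SPRR1A by 1.04 ± 0.085 and SPRR1B by 1.02 ± 0.099 (limma adjusted p = 0.00255 and 0.00379), and 0 fell. Among 13 tested genes of other intermediate filaments, 7 rose and 1 fell, with a median of 0.23. SYNM, the gene of synemin, rose by 0.98, the nuclear lamin genes LMNB1 and LMNB2 by 0.80 and 0.78, and VIM, the gene of vimentin of mesenchymal cells, by 0.73 ± 0.13. The tested probe sets of LMNB1 ran from 0.07 to 0.80, and those of LMNB2 from 0.50 to 0.78. DES, the gene of muscle desmin, was the member that fell (-0.39; named after its value was seen).

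Of 19 tested genes of transcription factors that act on keratin genes, 1 rose, 4 fell and 14 did not pass (median -0.09). KLF5, a factor of proliferating epithelial cells, rose by 0.53 ± 0.057 (SE; limma adjusted p = 0.00481). GRHL1, of the grainyhead family, fell by 0.57 ± 0.077 (limma adjusted p = 0.00829), with other probe sets at as little as -0.08, and TFAP2C fell by 0.37, KLF4 by 0.33 and AHR by 0.24 (AHR named after its value was seen). After quantile normalization 8 genes of this list were lower, and with centred arrays 9. Over the 4 lists, 16 of 55 tested genes rose and 6 fell, against 17.7% and 12.3% of all; with control replicate 1 left out 6 were called higher, and with control replicate 2 left out 5, and 0 lower in both (limma; 10 and 9 lower at an unadjusted p under 0.05).

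The labelled cell type showed in its markers: CDH1 and EPCAM, the genes of epithelial cadherin and of an epithelial adhesion molecule, were at mean log2 intensities of 9.73 and 9.41 and did not pass (0.04 and 0.15). Of 21 measured markers of other cell types 5 were below the level of 2.83, LUM at 1.13, DCN at 2.28 and COL3A1 at 2.13 for fibroblasts, PTPRC at 1.36 for leukocytes and MLANA at 2.15 for melanocytes. The other 16 lay above it, from 2.98 (MYH2 of muscle) to 5.85 (CD68 of macrophages), COL1A1 at 4.16 and PMEL at 4.46 among them. The called keratins KRT80 (5.59), KRT9 (5.07), KRT13 (4.51), KRT1 (4.33) and KRT83 (3.57) lay in the same range. Of the fibroblast list 3 of 6 measured genes were above 2.83, with summed intensities of 55 to 62 in the mimic arrays and 66 to 68 in the controls. For leukocytes these were 3 of 4 genes, 116 to 123 and 88 to 100, for melanocytes 2 of 3, 41 to 48 and 45 in each control, for endothelium 4 of 4, 74 in each mimic array and 81 to 83, and for muscle 4 of 4, 53 to 54 and 66 to 67. CD14 (0.53) and CD68 (0.34) rose and the muscle genes DES (-0.39), MYOD1 (-0.32) and ACTA1 (-0.24) fell; their part in the keratin results was not tested. Replicates correlated at r = 0.998 (mimic) and 0.997 (control) across 49293 probe sets. Control replicate 1 stood apart in 8 of 10 interferon-response genes, where it read 0.89 to 2.57 above the next highest array on the log2 scale. In IFI44L it was highest by 0.14, and in OAS2 it read 4.86 against 4.90 in control replicate 2. The mean over the 10 genes was 6.90 on that array against 5.73 in control replicate 2 and 5.53 and 5.33 in the mimic arrays. Without that array KRT15 was at 1.86, KRT14 at 1.32, KRT19 at 0.62, KRT7 at -0.81 and KRT80 at -0.87, all past the threshold in limma, as was KRT13.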

How the data were processed

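RNA of 4 SCC-15 samples was measured on Affymetrix arrays. The authors deposited 1 linear intensity per probe set and array, made with RMA (background correction, quantile normalization and summarization) per the submitters' processing notes; the program and its settings are not given in sources used here. Deposited intensities ran from 1.62 to 11401, with array medians of 17.2 to 17.5, and no detection calls were used. Log2 was taken. Of 49293 probe sets, 44988 matched 1 gene, 1832 several and 2473 none in the platform annotation; 44961 of the first were matched to RefSeq (GRCh38.p14) for current symbols. The 9 probe sets of 5 keratin pseudogenes, and 2 keratin probe sets that match several genes, were left out.

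The dimmest 30% of probe sets (mean log2 intensity below 2.83) were dropped, and each gene was represented by its brightest probe set over all arrays. Mimic was compared with control in limma 3.58.1 (R 4.3.3; lmFit, eBayes) without a block, with Benjamini-Hochberg adjustment over 14340 genes at 0.05; the fit had 4.98 total degrees of freedom. SE is limma's moderated error, and the number of arrays limits the precision.

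Named were all keratins past the threshold (with array values from a log2 difference of 0.5), the 8 brightest, both members of listed pairs, and up to 4 called genes of each other list. Members and lists were chosen with earlier results of these data known. Alternatives changed the filter, scaling, probe set choice, eBayes options, block and arrays.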

Additional observations from a re-analysis of the deposited data

How the results depend on the processing

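The directions of the 11 keratin genes past the threshold were kept under every alternative in which they were measured; KRT14 has no value without _s_at and _x_at probe sets and KRT83 none when the lowest 50% of probe sets were left out. On leaving out single arrays, limma called 0 to 4 keratin genes higher and 0 to 2 lower, 0 keratin probe sets in either direction (10 to 11 higher and 3 to 6 lower at an unadjusted p under 0.05), 0 to 6 genes of the partner and regulator lists higher and 0 lower (7 to 10 at an unadjusted p under 0.05), and 0 to 796 of all genes higher and 0 to 167 lower; without either mimic array the lowest adjusted p over all genes was 0.055. With arrays centred on their medians, 8 keratin genes, 6 keratin probe sets, 12 list genes and 3777 of all genes were lower, the median keratin difference was -0.14, and the share of calls higher over all genes was 34.7%, against 59% in the main test and 44% after quantile normalization, where 11 list genes were lower. The mean of a gene's probe sets gave 5 keratin genes lower. Leaving out the lowest 50% of probe sets gave 10 list genes lower and a keratin median of 0.26 over 17 members, and no filter a median of -0.09 over 48; eBayes with trend and robust options gave 11 list genes lower. Members with differences near 0 changed sign: KRT8 (0.01 with the mean of its probe sets), KRT76 (0.00 after quantile normalization) and KRT4 (-0.08 to 0.00 on leaving out a single control array, 0.00 without control replicate 2). The cause of these changes was not tested. Leaving out arrays or probe sets also left fewer arrays or genes in the fit, and that part was not separated. The labels do not say whether same-numbered arrays belong together. Over genes tested, their deviations correlated at -0.001, which with 2 arrays in each group cannot show whether they shared a culture or a batch. With the replicate block 7 keratin genes were higher and 3 lower, and 979 of all genes lower and 1939 higher; KRT9 lost its call. Dim probe sets are compressed by background correction, so a difference there may be understated.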
